A study of Mus musculus with 14 samples.

Results

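Genes that were high or low in the mouse lung at E18 against the time points around it were sought. E18, 2 days after E16, was set against both of its neighbours in a developmental time course, E16 and P2. Transient refers to these neighbours only, and a gene can reach or pass its E18 level at earlier or later time points. A gene was called transient high when E18 was above both E16 and P2 with each step past the test, and transient low when it was below both in the same way, at the thresholds given below. The E18 difference is given as the mean of the 2 E18 arrays minus the average of the E16 and P2 means, which rests on 6 of the 14 arrays of the series. Of 18193 genes with a probe set of their own, 11092 were measured, which means that the highest of the E16, E18 and P2 means was above 7 on the log2 scale. Among these, 1044 were transient high and 575 transient low.

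Whole lungs of ICR mice, an outbred strain, were collected at embryonic days 16 and 18, counted from the day of the plug as day 0, and at postnatal day 2. Lungs were pooled before the RNA was extracted, and each of the 3 time points was measured on 2 oligonucleotide arrays. How many lungs made up a pool is not given in the sources used here. Nor is it given whether both arrays of a time point came from separate pools. Each SE and p rests on the spread between arrays of the same time point, pooled over all 14 arrays of the series. That spread may be technical. No treatment or genetic change was used. In whole lung, fewer cells of a type and less RNA per cell cannot be told apart.

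Between E16 and E18 the mouse lung passes from the branching of its airways to the thinning of the walls that will become air spaces, and birth follows soon after. In this period rising glucocorticoid hormone from the fetal adrenal drives the maturation of the epithelium, and type II cells turn stored glycogen into the phospholipids of surfactant. The fetal lung is filled with liquid that its epithelium secretes, works in low oxygen, and at birth has to absorb that liquid and breathe air. Of the time points compared here, E16 and E18 lie before birth and P2 after it.

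Sex-linked genes went against the labels. These name all samples female, but Xist, the RNA that coats the inactive X chromosome of female cells, read 12.78 and 13.32 at E16, 12.65 and 11.97 at E18, and 7.26 and 7.33 at P2, while the Y-linked gene Eif2s3y read 7.14 and 3.13 at E16, 7.65 and 8.10 at E18, and 8.62 and 8.5 at P2. Both E18 arrays and E16 replicate 1 were high in both genes, E16 replicate 2 was high in Xist only, and the P2 arrays were high in Eif2s3y with Xist near its P10 mean of 7.15. Of 341 measured genes of the X chromosome, 21 were transient high and 23 transient low, and of 3 measured genes of the Y chromosome 0 were either. Over all 11092 measured genes 1044 were transient high (9.41%) and 575 transient low (5.18%). The strong genes described below include 1 X-linked gene in each direction, Gdpd2 and Mid1. The sex makeup of E18 and P2 cannot be told apart from their age, and its part in the results was not tested. Heart muscle also differed between the E16 arrays: Myl2, a myosin of the heart ventricle, read 12.63 and 8.84 at E16, 4.83 and 4.84 at E18, and 6.27 and 5.98 at P2, and the summed level of the 23 heart genes was 14.99 and 12.63 on the log2 scale at E16, 13.26 and 13.50 at E18, and 14.31 and 14.03 at P2. No heart gene was transient high or low, but without E16 replicate 2 there were 10 that were low. As a defining marker of lung, Sftpc, a surfactant protein of type II cells, read 14.34 and 14.30 at E16, 14.76 and 14.72 at E18, and 14.82 and 14.81 at P2. Correlations between replicates were 0.9953 at E16, 0.9961 at E18 and 0.9977 at P2, and the median SD of the measured genes was 0.070, 0.067 and 0.047. Of the 6 arrays, E18 replicate 1 had the highest 3′ minus 5′ difference of the control probe sets, a sign of RNA quality, with 0.739 for Actb, against 0.421 to 0.506 in the other arrays, and 0.026 for Gapdh, against -0.169 to -0.037. Its part in the results was not tested apart from leaving that array out.

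Steps from E18 to its neighbours were estimated in limma which fitted 1 mean per time point over all 14 arrays, with p adjusted by Benjamini-Hochberg over 45037 probe sets. Transient genes had an adjusted p under 0.05 in both steps, the same direction in both, and a level above 7 at E18 when high or in one of the neighbours when low. In single steps 33.6% of the measured genes were above E16 and 31% below it, and 14.7% were above P2 and 11.2% below it. Both steps share the E18 arrays, so a deviation of these arrays moves both the same way. The 1044 transient high genes were 9.41% of the measured genes and the 575 transient low genes 5.18%. Their steps were mostly small: the median of the smaller of the 2 steps was 0.53 for the high genes and 0.48 for the low genes. In Adult, 212 of the high genes were at or above their E18 mean, and 280 of the low genes at or below it. Of the high genes, 793 had their highest mean of all 7 time points at E18, and of the low genes 281 had their lowest. The counts depended on arrays of E18 and P2, where leaving one out leaves its time point with 1 array that is assumed to vary like the others: without E18 replicate 1 there were 629 high and 302 low genes, without P2 replicate 1 there were 674 and 267, and without P2 replicate 2 there were 634 and 323.

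Strong transient genes, in which the smaller step was above 1.2, were 82 high (0.739% of the measured genes) and 15 low (0.135%). Their E18 arrays did not overlap with those of E16 or P2 in 82 of 82 and 15 of 15, which the thresholds make nearly certain. Just inside the threshold were Fxyd4, Qpct and Crispld2 among the high genes, with a smaller step of 1.21, and just outside were Mpp7 and Deptor with 1.2 after rounding and Mertk with 1.19. Among the low genes, Mex3b with -1.21 and Mcm5 with -1.23 were inside, and Esco2 with -1.19 and Lgals1 with -1.17 outside. Without E18 replicate 2 the strong low genes numbered 24, against 15 with all arrays. The averaged E18 difference alone, at the same p and size, was higher in 267 genes (2.41%) and lower in 222 (2%). Of these, 202 and 149 were transient by both steps, while 56 and 68 passed only the step from E16.

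**Figure D1:**
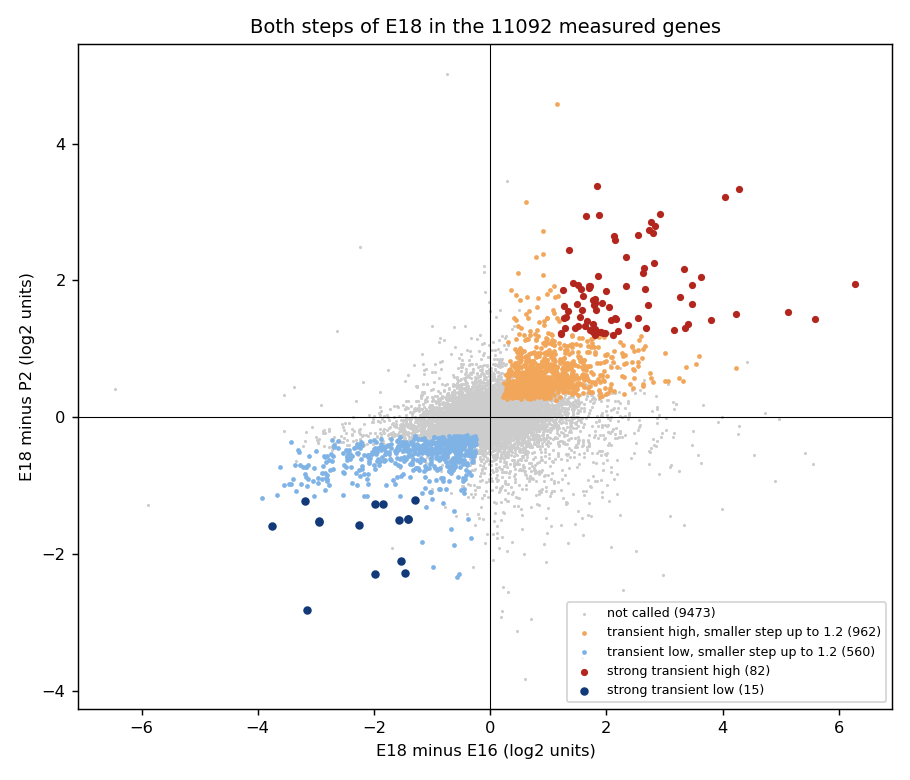
Difference of E18 from E16 (x axis, log2 units) and from P2 (y axis, log2 units) for each of the 11092 measured genes. Transient high genes lie at the upper right and transient low genes in the lower left, with the 82 and 15 strong genes in dark colours.

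The same rule was applied to the other inner time points of the series, each against the one before and the one after it. E18 had 1044 high and 575 low genes, P10 between P2 and Adult had 374 and 383, E16 had 92 and 244, P2 had 117 and 115, and E14 had 13 and 7. Strong high genes were 82 at E18 against 23 at P10, 15 at P2, 5 at E16 and 0 at E14. Strong low genes were 15 at E18 and 18 at P10. Intervals between time points differ in length, neighbouring comparisons share arrays, and the differences between these counts were not tested.

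The 15 strong high genes with the largest smaller step were led by enzymes. In most of them a neighbour lay below the level of 7, where the size of a step is less certain. Cyp2e1, a cytochrome P450 that oxidizes ethanol and other small molecules, read 5.28 and 4.96 at E16, 9.59 and 9.21 at E18, and 5.93 and 6.19 at P2. It was 4.29 above E16 and 3.34 above P2 (SE 0.27 for each step; adjusted p = 3.81e-08 and 3.23e-06). Gnmt, which uses S-adenosylmethionine to methylate glycine, read 6.03 and 6.36 at E16, 10.17 and 10.31 at E18, and 7.05 and 7.00 at P2, with steps of 4.04 and 3.21 (SE 0.15; adjusted p = 6.56e-10 and 3.7e-08). In both genes the E18 arrays lay above all 4 of the others, as in all 82 strong high genes.

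Both genes had higher means again in Adult: Cyp2e1 had a mean of 6.63 at P10 and 8.82 in Adult, and Gnmt had 6.54 and 7.68. Xdh, the xanthine dehydrogenase that ends purine breakdown, read 7.31 and 7.01 at E16, 10.53 and 10.47 at E18, and 8.37 and 8.30 at P2, and its Adult mean of 11.34 exceeded its E18 mean. Gpx3, the glutathione peroxidase secreted into blood and fluids, read 10.60 and 10.25 at E16, 13.07 and 13.05 at E18, and 10.94 and 10.97 at P2 and reached 13.57 in Adult. Xdh and Gpx3 were thus highest in Adult and next highest at E18.

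Other genes of the 15 were raised at E18 alone. Zbtb8b, a zinc finger protein, read 5.96 and 6.04 at E16, 8.66 and 9.01 at E18, and 6.0 and 6.09 at P2. Cavin4, a coat protein of caveolae best known from muscle, read 5.16 and 4.94 at E16, 7.90 and 7.80 at E18, and 5.23 and 5.09 at P2. In both genes P2 lay close to E16, and all other time points were lower than E18. Cela1, an elastase that cuts elastin, read 6.82 and 6.44 at E16, 9.55 and 9.57 at E18, and 6.57 and 6.62 at P2, with steps of 2.93 and 2.97 (SE 0.12; adjusted p = 1.22e-09 and 1.7e-08). Klk13, a serine protease of the kallikrein family, read 6.76 and 6.74 at E16, 9.14 and 9.05 at E18, and 6.68 and 6.82 at P2. The proton pump subunit Atp6v0a4 read 5.15 and 4.84 at E16, 7.49 and 7.59 at E18, and 5.0 and 4.75 at P2, and Gipr, the receptor of an incretin hormone of the gut, read 5.64 and 5.28 at E16, 7.44 and 7.76 at E18, and 4.86 and 5.05 at P2. Each of these proteases, the pump subunit and the receptor was below 7 at both neighbours and above it in both E18 arrays.

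Prcd, a small membrane protein of photoreceptor discs, was 2.77 and 2.85 above E16 and P2, and Tecrl, a reductase-like membrane protein, 2.74 and 2.73. Susd2, a membrane protein with a sushi domain, was 2.83 and 2.26 above them, and the phosphodiesterase Gdpd2 3.63 and 2.05. Adjusted p values of these 4 genes ran up to 3.08e-07 for the step from E16 and 2.72e-06 for that to P2. Tecrl varied between the E16 arrays, at 6.46 and 5.65, by more than between the E18 arrays, at 8.75 and 8.84.

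**Figure D2:**
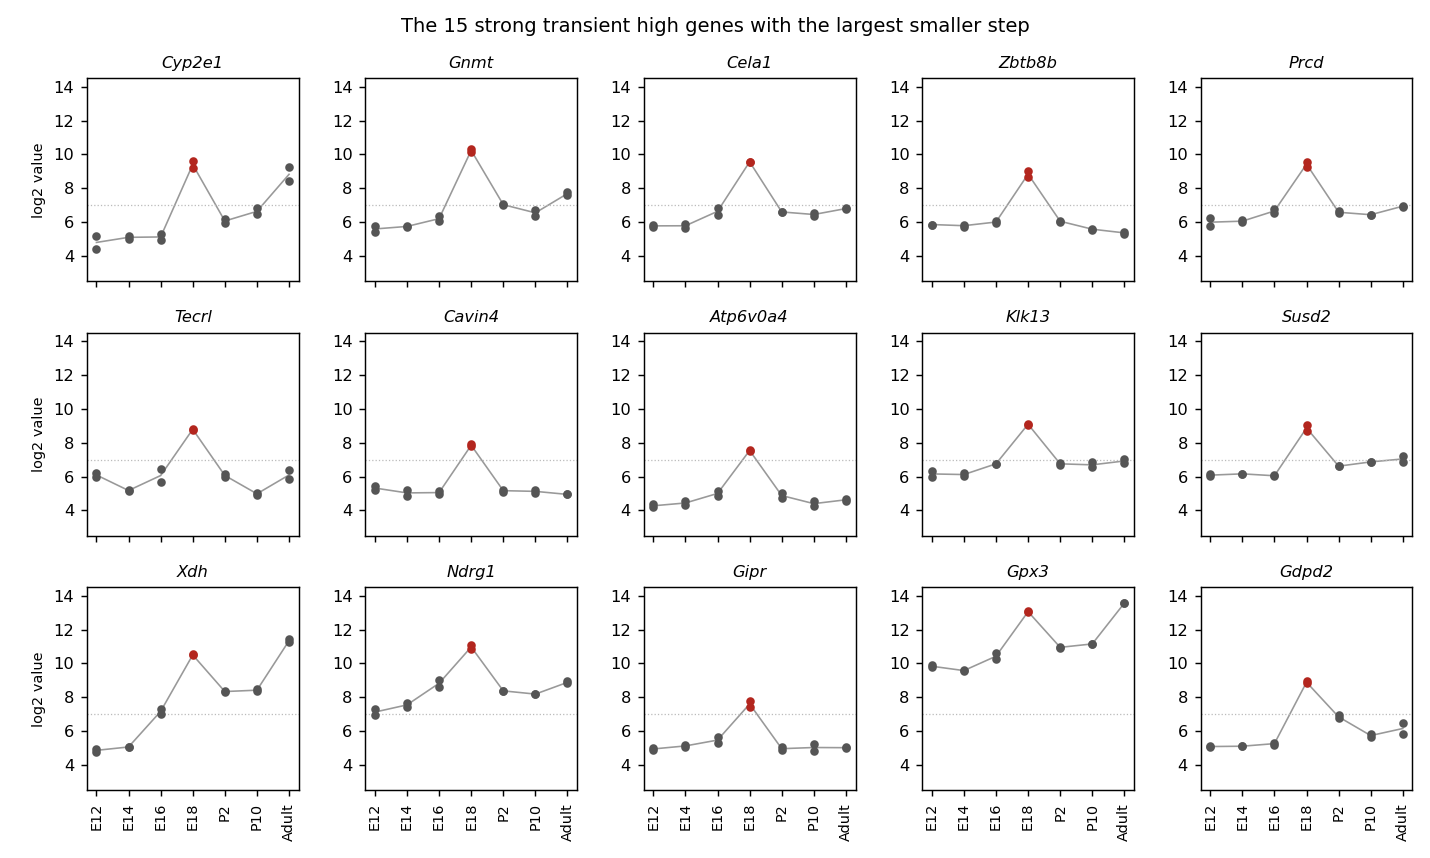
Log2 values of the 15 strong transient high genes with the largest smaller step at all 7 time points (x axis), with a point for each array, E18 in red, and a line through the means. The dotted line is the level threshold of 7. E18 lies above both neighbours in each gene by the rule that picked them, and Xdh and Gpx3 are higher still in Adult.

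Over all 82 strong high genes, E18 was the highest of the 7 time points in 71, and the Adult mean was at or above that of E18 in 10. P2 was within 0.5 of E16 in 41, above it by more in 34 and below it by more in 7. Their median level was 9.20 at E18, against 7.13 at E16 and 7.68 at P2, which follows from the rule, and later it was 7.35 (P10) and 7.79 (Adult). Other probe sets for the same genes gave 40 with a level above 7, from 19 genes, and 40 of 40 were transient high too, while 13 of 17 below that level had E18 above both neighbours. These probe sets measure the same RNA samples and a level filter favours them, so they check the probe and not the samples.

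Values of P10 and Adult do not enter the steps, though their arrays share the estimate of the spread and the choice of probe set. From P10 to Adult, 47 of the 82 strong high genes rose (57.3%) and 13 fell (15.9%), against 20% and 21.7% of all measured genes. The median change was 0.59. Among all 1044 transient high genes 45.3% rose and 10.8% fell, and of the 575 transient low genes 5.57% rose and 62.6% fell. Between E12 and E14, 12.3% of the transient high genes rose and 1.25% fell, against 5.27% and 0.775% of measured genes. Neither difference in shares was tested.

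Low oxygen induces genes through the factor HIF, which in air is marked for destruction by oxygen-dependent enzymes. Of 33 hypoxia response genes on the array, 29 were measured and 15 were transient high (51.7%, against 9.41% of measured genes), 0 transient low. The median E18 difference of the 33 was 0.69, against 0.00 for all genes, and 25 of 33 had E18 above both neighbours' means, against 32% of all genes. Leaving out single arrays left between 13 and 16 high.

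Ndrg1, a stress protein induced by hypoxia, read 9.02 and 8.63 at E16, 11.06 and 10.88 at E18, and 8.36 and 8.39 at P2, with steps of 2.15 and 2.60 (SE 0.14; adjusted p = 5.2e-08 and 9.36e-08). Its other probe sets gave steps of 1.45 to 2.17 from E16 and 1.92 to 2.88 from P2. Bnip3, which sends mitochondria to autophagy, read 10.40 and 10.21 at E16, 11.78 and 11.95 at E18, and 10.04 and 9.94 at P2. Ankrd37, an ankyrin repeat protein and HIF target, read 8.38 and 8.30 at E16, 10.63 and 9.78 at E18, and 7.36 and 7.12 at P2, so the E18 arrays differed by more than those of the neighbours and yet both lay above all of them. Adm, which encodes the vessel-dilating peptide adrenomedullin, read 6.77 and 6.66 at E16, 8.93 and 8.91 at E18, and 7.62 and 7.71 at P2, and its P10 mean was higher, at 9.61. Hif3a, a HIF subunit that can dampen the others, read 10.43 and 10.36 at E16, 11.27 and 11.35 at E18, and 9.02 and 8.84 at P2, with a step of 0.92 from E16 and 2.38 to P2.

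Not all hypoxia genes behaved alike. Vegfa, the growth factor of blood vessels, was 1.92 above E16 but differed from P2 by 0.06 (SE 0.14, adjusted p = 0.839). Ddit4, an inhibitor of growth signaling, was 0.37 above E16 (SE 0.17, adjusted p = 0.0962) and 1.29 above P2. Hif1a itself read 11.52 and 11.64 at E16, 11.32 and 11.37 at E18, and 11.33 and 11.42 at P2, and neither step passed the test.

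The 300 bases around the start of Bnip3 and Ankrd37 are shown because both genes were strong transient high and HIF binds the core ACGTG. They are RefSeq promoter windows of assembly GRCm38.p6, printed 5′ to 3′ on the strand of the gene with ACGTG, read on either strand, in capitals. Bnip3 lies at chr7:138909457-138909756 on the minus strand and holds overlapping matches on both strands, at -108 and -107 from the start. Ankrd37 lies at chr8:45999801-46000100 on the minus strand, with matches at -241 and -6.
Bnip3: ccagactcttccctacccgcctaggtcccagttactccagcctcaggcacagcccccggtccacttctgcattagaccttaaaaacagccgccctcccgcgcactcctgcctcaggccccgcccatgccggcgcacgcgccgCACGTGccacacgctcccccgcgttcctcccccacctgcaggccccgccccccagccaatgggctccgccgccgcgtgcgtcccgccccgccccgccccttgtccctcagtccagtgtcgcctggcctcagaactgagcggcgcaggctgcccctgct
Ankrd37: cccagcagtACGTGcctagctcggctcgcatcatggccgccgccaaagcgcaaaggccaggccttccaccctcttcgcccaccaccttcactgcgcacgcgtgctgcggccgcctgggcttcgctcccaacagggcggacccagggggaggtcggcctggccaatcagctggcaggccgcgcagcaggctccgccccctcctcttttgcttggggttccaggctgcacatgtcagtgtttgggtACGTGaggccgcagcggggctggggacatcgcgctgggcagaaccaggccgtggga
Of 16 windows of the called hypoxia genes 62.5% held ACGTG, of 18 windows of measured members not called 55.6%, of the 11548 windows of all measured genes 25.6% and of all 32851 windows 19.6%. A gene can have several windows, and 12 of the 15 called genes had at least one. A match is a run of letters and not a measured site.

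Glycolysis genes passed the step to P2 more often than both steps. Of 19 measured members 5 were transient high (26.3%, against 9.41% of all measured genes) and 0 low. Of the 19, 13 were above P2 and 6 above E16 (68.4% and 31.6%, against 14.7% and 33.6%). Hk2, a hexokinase that traps glucose in the cell, read 8.85 and 8.89 at E16, 9.57 and 9.74 at E18, and 7.36 and 7.29 at P2. Pfkl, the liver form of phosphofructokinase, read 9.96 and 10.10 at E16, 10.43 and 10.36 at E18, and 8.56 and 8.5 at P2, and Aldoa, the main aldolase, 11.12 and 10.87 at E16, 11.48 and 11.56 at E18, and 10.51 and 10.51 at P2. In these 3 genes the fall from E18 to P2 was larger than the rise from E16. Hk2 had a higher mean at E12, at 9.85, and Pfkl at E12 and E14, at 10.43 and 10.63. E18 was the highest of the 7 time points in 2 of the 19 measured members. Aldoc, a second aldolase and the strong member, read 7.32 and 7.16 at E16, 9.09 and 8.84 at E18, and 7.72 and 7.67 at P2. Slc2a1, the glucose transporter, was 2.13 above P2 but differed from E16 by -0.11 (SE 0.15, adjusted p = 0.618). Pgk1, an ATP-forming enzyme, was below E16 (difference -0.41, adjusted p = 0.00131) and above P2 (0.70). Without E18 replicate 1, 3 members were transient high. ACGTG was in 51.7% of 29 windows of the measured members.

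Glycogen is laid down in fetal lung epithelium and used up around birth. Of 20 measured glycogen genes 6 were transient high (30%, against 9.41% of all measured genes) and 1 low (5%, against 5.18%). Pygl, the phosphorylase that releases glucose from glycogen, read 10.59 and 10.67 at E16, 11.55 and 11.68 at E18, and 10.22 and 10.11 at P2. Gbe1, the branching enzyme, read 7.92 and 7.87 at E16, 8.58 and 8.43 at E18, and 6.98 and 7.02 at P2, and Gys1, a glycogen synthase, 8.96 and 8.73 at E16, 9.43 and 9.57 at E18, and 8.35 and 8.37 at P2. Enzymes of making and of breaking glycogen were thus both among the high members. Ppp1r3b, which brings the phosphatase to glycogen, had the largest step to P2 in the list, 3.46, but stood 0.30 above E16 (SE 0.14, adjusted p = 0.106).

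Fatty acids and phospholipids are the bulk of surfactant. Of 31 measured genes of fatty acid and phospholipid synthesis 14 were transient high (45.2%, against 9.41% of all measured genes) and 0 low. Between 11 and 14 were high when single arrays were left out. Scd1, the desaturase that makes oleate, read 7.04 and 5.98 at E16, 12.16 and 12.04 at E18, and 10.69 and 10.63 at P2, so it was strongly raised from E16, by 5.59, and fell by 1.44 to P2. Its Adult mean was above that of E18, at 12.69. Fasn, the fatty acid synthase, read 9.77 and 9.62 at E16, 11.61 and 11.53 at E18, and 10.47 and 10.31 at P2. Acss2, which activates acetate, read 7.42 and 7.30 at E16, 9.72 and 9.57 at E18, and 8.61 and 8.56 at P2, Lpin1, a phosphatidate phosphatase, 7.58 and 6.98 at E16, 9.13 and 8.89 at E18, and 7.84 and 7.88 at P2, and Dgat2, which makes triglyceride, 8.41 and 8.49 at E16, 9.0 and 9.26 at E18, and 7.55 and 7.60 at P2. In each of these both E18 arrays were above all 4 others, which the call makes likely.

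Elovl6, which lengthens fatty acids, was not called: it differed by -1.23 from E16 and 0.09 from P2. Plin2, a coat protein of lipid droplets, differed by 0.21 from E16 and -0.09 from P2, and neither step passed the test.

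Sterol synthesis, which shares its SREBP regulators with fatty acid synthesis, had 6 transient low genes of 21 (28.6%, against 5.18%) and 0 high. Sqle, the squalene epoxidase, read 9.51 and 9.72 at E16, 8.46 and 8.60 at E18, and 9.09 and 9.06 at P2. Msmo1, a methylsterol oxidase, read 8.36 and 8.40 at E16, 7.58 and 7.55 at E18, and 8.46 and 8.44 at P2, and Dhcr7, which makes the last step to cholesterol, 7.86 and 7.79 at E16, 6.83 and 6.91 at E18, and 7.64 and 7.59 at P2. Cyp51 and Idi1 were the other named low members, with E18 differences of -0.84 and -0.74. Hmgcs1, an early enzyme of the path, read 10.79 and 11.01 at E16, 10.95 and 10.80 at E18, and 11.01 and 11.15 at P2 and passed neither step. Median E18 differences were 0.42 for the fatty acid and phospholipid list and -0.22 for the sterol list.

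Fatty acid oxidation had 2 high and 2 low genes of 23 (8.7% each, against 9.41% and 5.18%). Pdk4, a kinase that inhibits pyruvate dehydrogenase, was strong transient high at 7.00 and 6.50 at E16, 8.46 and 8.22 at E18, and 6.84 and 6.70 at P2. Angptl4, an inhibitor of lipoprotein lipase, was low at 8.78 and 8.81 at E16, 7.98 and 7.64 at E18, and 10.02 and 9.98 at P2. Cpt1a, which carries fatty acids into mitochondria, rose in both intervals instead, by 0.47 to E18 and a further 1.18 to P2. Of 43 measured subunits and carriers of the respiratory chain, 2 were transient low, Cycs and Ndufa4 (4.65%, against 5.18%), and 0 high. Below E16 were 36 of the 43 (83.7%, against 31% of all measured genes).

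Glucocorticoid hormone acts through its receptor Nr3c1, which binds DNA as a pair at repeats with a spacer of 3 bases. Of 29 measured glucocorticoid response genes 14 were transient high (48.3%, against 9.41% of all measured genes) and 1 low. Of the 82 strong high genes 5 were among them. The median E18 difference of all 33 on the array was 0.71. Single arrays moved the count of high genes between 11 and 16.

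Zbtb16, a zinc finger repressor induced by the hormone, read 8.04 and 7.67 at E16, 9.66 and 9.71 at E18, and 6.4 and 6.2 at P2, with steps of 1.83 and 3.38 (SE 0.18; adjusted p = 2.11e-06 and 7.97e-08). Cebpd, a bZIP factor, read 9.62 and 9.38 at E16, 11.40 and 11.03 at E18, and 9.44 and 9.16 at P2. Map3k6, a stress kinase, read 6.15 and 6.19 at E16, 8.03 and 7.87 at E18, and 6.18 and 6.29 at P2. Hsd11b1, which turns inactive cortisone-type steroids into active hormone, read 10.15 and 9.89 at E16, 12.69 and 12.61 at E18, and 11.70 and 11.61 at P2, and its Adult mean was higher, at 13.05. Sult1a1, a sulfotransferase, read 7.87 and 7.60 at E16, 10.83 and 10.96 at E18, and 9.68 and 9.56 at P2. That E18 was above both neighbours in all 5 follows from the call, and P2 lay well above E16 in Hsd11b1 and Sult1a1.

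The receptor gene Nr3c1 read 10.86 and 10.73 at E16, 11.17 and 11.16 at E18, and 10.91 and 10.86 at P2, a step of 0.37 from E16 that passed and of 0.28 to P2 that did not (adjusted p = 0.0586). Tsc22d3, a classic target also known as GILZ, was 1.23 above E16 and 0.21 above P2 (adjusted p = 0.338). Crh, which encodes corticotropin-releasing hormone, read 9.96 and 10.09 at E16, 3.68 and 3.47 at E18, and 3.30 and 3.02 at P2: it was high at E16 alone of these 3 time points. Angptl4 was the low member.

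The promoter window of Map3k6 (chr4:133240568-133240867, plus strand, GRCm38.p6) is shown as the strong member whose window held ACANNNTGT, the core of the receptor's site, at -179, in capitals.
Map3k6: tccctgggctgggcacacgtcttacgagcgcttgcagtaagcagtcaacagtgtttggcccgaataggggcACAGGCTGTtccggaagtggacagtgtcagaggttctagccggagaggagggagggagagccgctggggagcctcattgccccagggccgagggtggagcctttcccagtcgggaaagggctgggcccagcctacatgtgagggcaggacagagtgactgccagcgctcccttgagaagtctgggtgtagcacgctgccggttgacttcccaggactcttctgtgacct
Windows with this motif were 21.4% of 14 among called members, 15.8% of 19 among measured members not called, 4.07% among all measured genes and 6.85% of all windows.

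Genes of the circadian clock encode activators and repressors that act on each other in a daily loop. Of 17 measured 7 were transient high (41.2%, against 9.41% of all measured genes) and 0 low. Without P2 replicate 2 there were 4. Per1 is also in the glucocorticoid list, and Bhlhe40, Bhlhe41 and Rora are also in the hypoxia list. Bhlhe40, a repressor of the clock, read 8.13 and 7.96 at E16, 9.84 and 9.27 at E18, and 8.20 and 8.26 at P2. Per1 read 8.64 and 8.48 at E16, 9.89 and 9.47 at E18, and 9.05 and 8.65 at P2, Per2 7.94 and 7.83 at E16, 9.15 and 8.84 at E18, and 8.31 and 8.17 at P2 and Per3 7.01 and 7.15 at E16, 8.74 and 8.86 at E18, and 8.40 and 8.30 at P2, all of them feedback repressors. The arrays of a time point lay farther apart in Per1 than in Per3. Bhlhe40 and Per3 had higher means in Adult than at E18, at 9.95 and 9.67. Arntl, the activator that Per proteins act against, was 0.70 above E16 and 0.24 above P2 (adjusted p = 0.205). The hour at which lungs were taken is not given in the sources used here.

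**Figure D3:**
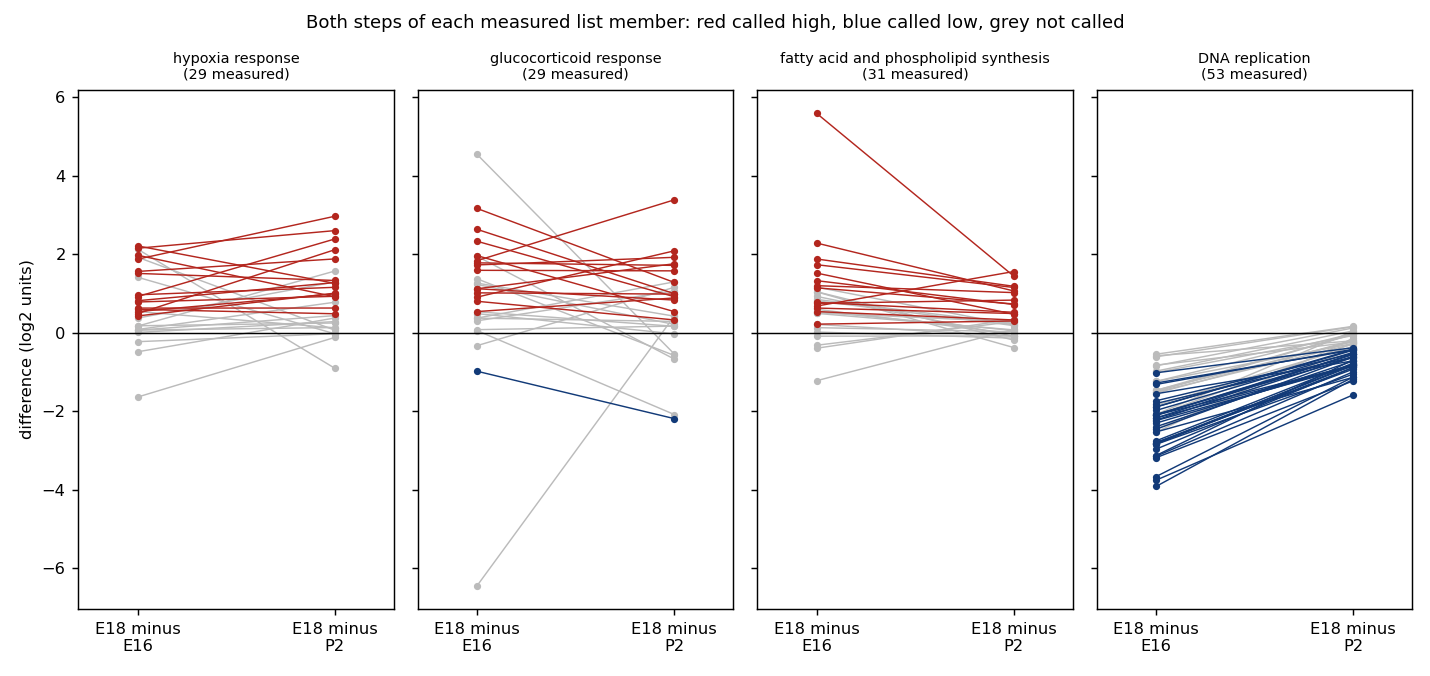
Both steps, E18 minus E16 and E18 minus P2 (y axis, log2 units), of each measured member of 4 gene lists, joined by a line and coloured by call. Hypoxia, glucocorticoid and lipid synthesis members called high, 15, 14 and 14 in number, lie above 0 in both steps, and DNA replication members called low, 34 of 53, lie below it in both. The side of 0 is part of the call.

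Surfactant and type II cell genes mostly rose from E16 to E18. Of 20 measured genes 18 were above E16 (90%, against 33.6% of all measured genes). Of these, 8 were also above P2 and so transient high (40% of the 20, against 9.41%). Without E18 replicate 1, P2 replicate 1 or P2 replicate 2 the high genes numbered 5. Abca3, the lipid pump of the lamellar body, read 9.68 and 9.49 at E16, 12.09 and 12.01 at E18, and 11.63 and 11.60 at P2. Cebpa, a factor needed for maturation of the epithelium, read 8.88 and 8.95 at E16, 11.01 and 10.83 at E18, and 10.03 and 9.96 at P2, Rab27a, a GTPase of secretion, 7.08 and 6.71 at E16, 9.11 and 9.25 at E18, and 8.30 and 8.25 at P2, and Ctsh, the protease that trims surfactant proteins, 12.21 and 12.14 at E16, 13.56 and 13.59 at E18, and 12.62 and 12.48 at P2. By contrast Sftpb was 2.08 above E16 and 0.11 from P2, and Sftpd 5.41 and -0.52. In type I cell genes 17 of 18 were above E16 (94.4%, against 33.6%). Of the 18, 2 were transient high, Igfbp6 and Gprc5a (11.1%, against 9.41% of all measured genes). Ager read 11.67 and 11.48 at E16, 14.11 and 14.16 at E18, and 14.17 and 14.18 at P2.

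Club cell genes divided in the same way. Pon1, the paraoxonase of serum, read 5.21 and 5.18 at E16, 11.59 and 11.38 at E18, and 9.79 and 9.29 at P2, with the E16 arrays below the level of 7. Fmo2, a flavin monooxygenase of lung, read 10.29 and 10.18 at E16, 12.90 and 12.94 at E18, and 11.60 and 11.64 at P2, and Retnla, a resistin-like protein, 7.96 and 8.47 at E16, 12.40 and 12.48 at E18, and 11.08 and 10.79 at P2. Cldn10, a claudin, was the other of 4 transient high genes among 18 (22.2%, against 9.41% of all measured genes). Fmo2 had a higher mean in Adult than at E18, at 13.37. The defining secretoglobin Scgb1a1 read 11.77 and 8.90 at E16, 13.95 and 13.96 at E18, and 14.60 and 14.66 at P2. Its E16 arrays lay far apart, and its step to P2 did not pass (-0.67, SE 0.64 pooled over all time points, adjusted p = 0.555). Cyp2f2 was higher at P2 than at E18 (difference -1.45).

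Of 27 measured genes of ciliated cells 13 were transient high (48.1%, against 9.41% of all measured genes) and 0 low. On the array 36 of 40 had E18 above both means, against 32% of all genes. The median step to P2 of the 40 was 0.43, and the count of high genes was 3 without P2 replicate 2, 7 without P2 replicate 1 or E18 replicate 2, and 8 without E18 replicate 1. Dnali1, a dynein light chain, read 7.03 and 6.69 at E16, 8.52 and 8.75 at E18, and 7.92 and 8.09 at P2, Dynlrb2, a dynein roadblock chain, 9.38 and 9.36 at E16, 10.52 and 10.66 at E18, and 10.03 and 9.94 at P2, and Rsph4a, of the radial spokes, 5.57 and 5.81 at E16, 7.37 and 7.23 at E18, and 6.39 and 6.55 at P2. Tppp3, a tubulin-binding protein, rose in both intervals.

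Of 18 genes of basal cells and keratins on the array 9 were measured, and 7 of the 9 were transient high, 4 without E18 replicate 1 or P2 replicate 1 and 3 at an adjusted p under 0.01. Over all 18 the median E18 difference was 0.02, with 9 above both neighbours' means and 5 below both, so the share of 77.8% rests on the members that passed the level. Krt8 read 11.55 and 11.64 at E16, 11.99 and 12.10 at E18, and 10.93 and 10.88 at P2, its partner Krt18 11.27 and 11.35 at E16, 11.75 and 11.77 at E18, and 10.35 and 10.34 at P2 and Krt19 11.10 and 10.83 at E16, 11.91 and 12.15 at E18, and 10.95 and 10.85 at P2. Krt15, a keratin of basal cells, read 7.35 and 7.28 at E16, 8.24 and 8.44 at E18, and 6.36 and 6.62 at P2. The general epithelial marker Epcam did not follow: it fell from E16 by 1.13 and was 0.37 above P2. Of the measured epithelial transcription factors 25% were high and 3.57% low, against 9.41% and 5.18% of all measured genes. Among epithelial transcription factors, 7 of 28 were high and 1 low, with 4 high without E18 replicate 1 or P2 replicate 1, and Elf5 read 9.99 and 9.96 at E16, 11.13 and 11.01 at E18, and 10.02 and 10.01 at P2 and Klf5 9.27 and 9.25 at E16, 10.50 and 10.58 at E18, and 9.69 and 9.52 at P2.

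Liquid transport genes rose to E18, 15 of 20 of them (75%, against 33.6% of all measured genes). Of the 20, 5 were transient high, 3 without E18 replicate 1. With all arrays the high members were 25% of those measured, against 9.41% of all measured genes. Nedd4l, the ubiquitin ligase that removes sodium channels from the membrane, was the strong one, at 9.58 and 9.46 at E16, 11.49 and 11.52 at E18, and 9.64 and 9.69 at P2. The chloride channel Cftr read 7.98 and 7.91 at E16, 9.31 and 9.01 at E18, and 8.64 and 8.56 at P2, and Slc12a2, which loads chloride into the cell for secretion, 12.52 and 12.56 at E16, 13.29 and 12.95 at E18, and 12.06 and 12.23 at P2. Atp1b1, the beta subunit of the sodium pump, read 11.17 and 11.06 at E16, 12.60 and 12.40 at E18, and 11.76 and 11.74 at P2. Among genes of sodium uptake, Scnn1a was 2.85 above E16 and 0.31 above P2 (adjusted p = 0.213), Scnn1b was lower than at P2 (difference -0.80), and Sgk1, a kinase that keeps sodium channels at the membrane, read 9.69 and 9.49 at E16, 9.70 and 9.58 at E18, and 11.74 and 11.72 at P2.

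Meg3, a noncoding RNA of an imprinted region of chromosome 12, read 12.22 and 12.11 at E16, 13.52 and 13.67 at E18, and 11.68 and 11.60 at P2. Its 10 other probe sets above level 7 were transient high too. Rian, another noncoding RNA, read 9.21 and 9.02 at E16, 10.32 and 9.73 at E18, and 7.33 and 7.27 at P2, and Mirg, a host of microRNAs, 8.37 and 8.5 at E16, 9.09 and 8.80 at E18, and 6.97 and 7.48 at P2. Dlk1, a delta-like protein encoded beside them, read 12.17 and 12.32 at E16, 13.58 and 13.22 at E18, and 8.88 and 8.76 at P2. Its step to P2 was 4.58. In the whole list of imprinted genes 5 of 25 were high and 2 low (20% and 8%, against 9.41% and 5.18% of all measured genes). Igf2 was in neither, since it fell by 0.80 from E16 and by a further 1.14 to P2.

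Binding proteins of insulin-like growth factors moved in opposite directions. Igfbp3 read 7.24 and 7.36 at E16, 9.41 and 9.29 at E18, and 7.77 and 7.70 at P2 and Igfbp6 8.12 and 7.91 at E16, 11.44 and 11.55 at E18, and 9.55 and 9.56 at P2, both strong transient high, while Igfbp2, strong transient low, read 9.97 and 10.13 at E16, 6.98 and 7.21 at E18, and 8.69 and 8.54 at P2. Adult means of Igfbp3 and Igfbp6 were above their E18 means, at 10.03 and 11.74. Igf1, the growth factor itself, was low, at 11.23 and 11.38 at E16, 9.80 and 10.05 at E18, and 10.88 and 10.72 at P2, and the insulin receptor Insr high, at 8.36 and 8.24 at E16, 9.62 and 9.5 at E18, and 8.93 and 8.89 at P2.

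Interferon response genes rose to E18, 24 of 25 (96%, against 33.6% of all measured genes). Of the 25, 6 were transient high, 3 without E18 replicate 1 and 2 without P2 replicate 2. With all arrays the high members were 24% of those measured, against 9.41% of all measured genes. Ifitm1, a membrane protein that blocks virus entry, read 8.97 and 9.01 at E16, 12.47 and 12.45 at E18, and 10.79 and 10.81 at P2. Apoe and Apoc1, carriers of lipid in plasma and the 2 high members of a liver list, read 10.75 and 10.83 at E16, 12.57 and 12.56 at E18, and 10.95 and 10.90 at P2 and 7.88 and 7.86 at E16, 10.15 and 9.92 at E18, and 8.65 and 8.54 at P2. The summed level of the 16 liver genes was 11.51 and 11.56 at E16, 12.98 and 12.95 at E18, and 11.70 at both P2 arrays. Apoe and Apoc1 carry this sum: the median E18 difference of the 16 was 0.07, only 5 of the 16 were measured, and Alb and Afp were not among them. Macrophages also make Apoe. Of 22 measured macrophage genes 16 were above E16 (72.7%, against 33.6%), 10 below P2 (45.5%, against 11.2%) and 0 transient high. Neutrophil genes did likewise, with 11 of 14 above E16 (78.6%) and 12 below P2 (85.7%). S100a8 read 8.60 and 8.13 at E16, 10.60 and 11.15 at E18, and 12.89 and 12.78 at P2.

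The 15 strong low genes took in matrix, smooth muscle and dividing cells. Vcan, the large proteoglycan versican of loose matrix, read 10.52 and 10.69 at E16, 7.44 and 7.47 at E18, and 10.32 and 10.23 at P2, with E18 minus E16 of -3.15 and E18 minus P2 of -2.82 (SE 0.20; adjusted p = 4.11e-08 and 1.01e-06). Its P10 mean was 9.79 and its Adult mean 6.36, so that the value came back to near its E16 level after E18 and fell below E18 in Adult. Both of its other probe sets with a level above 7 were transient low. Thbs1, the matrix protein thrombospondin 1, read 9.51 and 9.64 at E16, 8.20 and 8.11 at E18, and 9.68 and 9.60 at P2.

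Some smooth muscle genes were among the low ones. Cnn1, calponin of the contractile apparatus, read 8.80 and 8.64 at E16, 6.77 and 6.72 at E18, and 9.20 and 8.89 at P2, and Actg2, a smooth muscle actin, 9.27 and 9.51 at E16, 7.76 and 7.94 at E18, and 10.01 and 9.90 at P2. Acta2, the actin of vessel and airway muscle, read 12.99 and 13.04 at E16, 11.71 and 12.09 at E18, and 13.23 and 13.19 at P2, Tpm2, a tropomyosin, 10.62 and 10.66 at E16, 9.73 and 9.94 at E18, and 11.13 and 11.06 at P2, and Synpo2, which binds actin, 7.95 and 8.02 at E16, 6.50 and 6.49 at E18, and 7.24 and 7.42 at P2. In the list 7 of 26 measured were transient low (26.9%, against 5.18% of all measured genes) and 0 high. The low count was 6 or 7 when single arrays were left out. Against E16, 8 of the 26 were above and 7 below, with a median of 0.01 for the 28 on the array. Against P2, 1 was above and 14 below (53.8%, against 11.2%), with a median of -0.42 for the 28. Tagln read 11.20 and 11.28 at E16, 10.85 and 11.22 at E18, and 12.52 and 12.37 at P2 and was low against P2 only, and Des, an intermediate filament of muscle, passed neither step.

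Mdk, the growth factor midkine, read 12.58 and 12.39 at E16, 9.46 and 9.61 at E18, and 11.07 and 11.06 at P2. Map2, which binds microtubules, read 7.76 and 7.79 at E16, 5.40 and 5.65 at E18, and 7.03 and 7.16 at P2, and the tubulin Tubb6 10.59 and 10.60 at E16, 8.5 and 8.73 at E18, and 9.99 and 9.77 at P2. Kdelr3, which returns proteins to the endoplasmic reticulum, read 9.46 and 9.15 at E16, 7.82 and 7.97 at E18, and 9.5 and 9.27 at P2. Bche, an enzyme that splits choline esters, read 7.86 and 7.62 at E16, 5.61 and 6.18 at E18, and 7.18 and 7.15 at P2, and Prss35, a protein like serine proteases, 8.05 and 7.95 at E16, 6.33 and 6.73 at E18, and 8.93 and 8.68 at P2. Mid1, a ubiquitin ligase on microtubules, read 8.70 and 8.94 at E16, 6.87 and 7.64 at E18, and 8.53 and 8.97 at P2. It had the widest spread between E18 arrays of the 15. Its SE of 0.39 pools all time points, among them Adult at 8.24 and 6.61. Mex3b, an RNA-binding protein, was at the threshold with 8.46 and 8.70 at E16, 7.20 and 7.36 at E18, and 8.48 and 8.51 at P2.

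**Figure D4:**
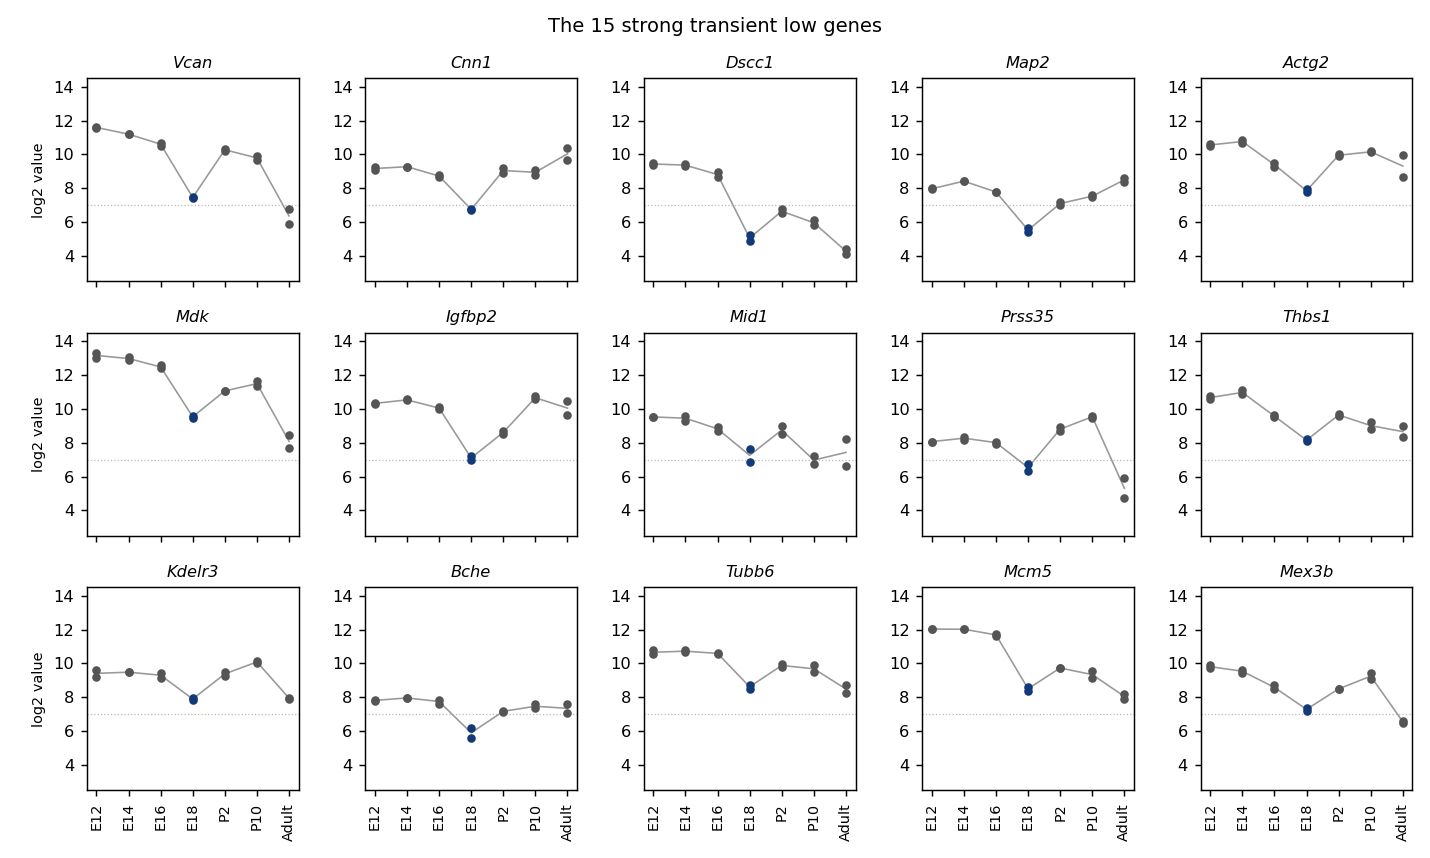
Log2 values of the 15 strong transient low genes at all 7 time points (x axis), with a point for each array, E18 in blue, and a line through the means. The dotted line is the level threshold of 7. E18 is the lowest of the 7 time points in 7 genes, and in the others another time point is lower.

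Copying of DNA needs the MCM helicase, which opens the strands, and loaders that place it and the sliding clamp. Of 53 measured DNA replication genes 34 were transient low (64.2%, against 5.18%) and 0 high, and leaving out single arrays gave between 28 and 35. All 53 were below E16, against 31% of all measured genes. The median was -2.08 from E16 for the 55 on the array, and the median step to P2 was -0.53. The fall from E16 was thus larger than the later rise to P2. E18 was the lowest of the 7 time points in only 8 of the 53.

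Mcm5, a helicase subunit, read 11.63 and 11.75 at E16, 8.38 and 8.62 at E18, and 9.71 and 9.75 at P2. E18 minus E16 was -3.19 and E18 minus P2 was -1.23 (SE 0.14; adjusted p = 1.66e-09 and 5.31e-05). Dscc1, part of a clamp loader for cohesion, read 8.65 and 8.97 at E16, 4.89 and 5.21 at E18, and 6.74 and 6.53 at P2, Cdc6, which loads the helicase, 9.41 and 9.68 at E16, 5.68 and 6.08 at E18, and 7.10 and 6.92 at P2, and Esco2, which acetylates cohesin, 8.71 and 8.60 at E16, 4.73 and 4.75 at E18, and 5.97 and 5.88 at P2. Uhrf1, which keeps methylation after copying, read 10.24 and 10.30 at E16, 7.16 and 7.08 at E18, and 8.09 and 8.14 at P2. Adult means of Mcm5, Dscc1, Cdc6, Esco2 and Uhrf1 lay below those of E18, at 8.05, 4.27, 5.57, 3.65 and 6.29. Rpa1, which coats single strands, was -0.98 from E16 and 0.04 from P2 (adjusted p = 0.841).

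Cell cycle and mitosis genes had a median step of -2.56 from E16 and of -0.35 to P2. E18 was the lowest of the 7 time points in only 5 of the 64 measured. Of 64 measured cell cycle genes 61 were below E16 (95.3%, against 31% of all measured genes). Of the 64, 1 was transient high and 29 were transient low (45.3%, against 5.18%). The count was 9 without E18 replicate 1, 13 without P2 replicate 1 and 10 without P2 replicate 2. Aurkb, the kinase of chromosome alignment, read 9.38 and 9.48 at E16, 6.42 and 6.51 at E18, and 7.43 and 7.43 at P2. Cenpk, of the kinetochore, read 9.63 and 9.81 at E16, 6.35 and 6.31 at E18, and 7.23 and 7.23 at P2, Cdca3, which helps cells enter mitosis, 10.51 and 10.45 at E16, 7.31 and 7.28 at E18, and 8.11 and 8.12 at P2, and Cdca5, the cohesion factor sororin, 9.67 and 9.60 at E16, 6.44 and 6.48 at E18, and 7.09 and 7.28 at P2. Adult means of Aurkb, Cenpk, Cdca3 and Cdca5 lay below those of E18, at 5.25, 5.26, 6.53 and 4.64. Mki67, the marker of dividing cells, was -2.46 from E16 and -0.33 from P2 (SE 0.12, adjusted p = 0.0796), and Cdk1 was -2.34 and -0.20 (adjusted p = 0.471).

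Promoter windows of Cdca3 (chr6:124829926-124830225) and Cdca5 (chr19:6084847-6085146), both on the plus strand of GRCm38.p6, are shown as called cell cycle genes that hold TTTGAA, the element named CHR of genes expressed in G2 and mitosis. Capitals mark TTTGAA and CCAAT, on either strand (ATTGG is CCAAT on the other).
Cdca3: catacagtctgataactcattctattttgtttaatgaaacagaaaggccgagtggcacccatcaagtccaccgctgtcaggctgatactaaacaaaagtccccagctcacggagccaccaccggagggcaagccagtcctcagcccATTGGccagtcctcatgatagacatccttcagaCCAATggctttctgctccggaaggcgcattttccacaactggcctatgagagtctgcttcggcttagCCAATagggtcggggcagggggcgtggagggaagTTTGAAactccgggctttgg
Cdca5: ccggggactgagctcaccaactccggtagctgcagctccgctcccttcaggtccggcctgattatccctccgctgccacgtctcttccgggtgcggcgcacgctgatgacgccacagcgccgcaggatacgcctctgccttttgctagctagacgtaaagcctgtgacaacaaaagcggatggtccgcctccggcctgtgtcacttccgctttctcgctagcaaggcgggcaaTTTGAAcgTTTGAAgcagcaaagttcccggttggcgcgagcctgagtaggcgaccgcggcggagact
TTTGAA was in 62.1% of 29 windows of called members, 63.3% of 30 of measured members not called, 11.9% of those of all measured genes and 17.9% of all windows, and CCAAT in 69%, 80%, 36.9% and 37.4%. Called members here are those called in either direction.

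Antioxidant enzymes divided: Gpx3 was strong high, while 6 of 26 were transient low, 3 of them without E18 replicate 1, P2 replicate 1 or P2 replicate 2. With all arrays 23.1% of the measured members were low and 7.69% high, against 5.18% and 9.41% of all measured genes. Txnrd1, thioredoxin reductase, read 10.19 and 10.15 at E16, 8.91 and 8.65 at E18, and 9.48 and 9.43 at P2, and Gpx2, an epithelial glutathione peroxidase, 8.04 and 7.80 at E16, 6.94 and 6.67 at E18, and 7.93 and 7.75 at P2. Sod1 and Cat read 12.26 and 12.42 at E16, 12.34 and 12.27 at E18, and 12.06 and 12.03 at P2 and 10.57 and 10.50 at E16, 11.26 and 11.10 at E18, and 11.38 and 11.55 at P2 and were not called.

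Matrix genes divided as well, with 7 high and 5 low of 44 (15.9% and 11.4%, against 9.41% and 5.18% of all measured genes). Eln, elastin, read 11.27 and 11.35 at E16, 13.56 and 13.43 at E18, and 12.72 and 12.80 at P2, and Lox, the enzyme that crosslinks it, 12.22 and 12.27 at E16, 12.90 and 12.85 at E18, and 11.06 and 11.16 at P2. Col1a1 was 0.29 from E16 (adjusted p = 0.219) and -0.56 from P2. Without E18 replicate 1 or P2 replicate 1 there were 3 high, without P2 replicate 2 there were 4, and without P2 replicate 1 there were 3 low.

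Signaling genes were fewer. In the Wnt list 4 of 37 were high and 1 low: Notum, which inactivates Wnt ligands, read 6.63 and 6.63 at E16, 8.70 and 8.43 at E18, and 7.35 and 7.32 at P2, and Nkd1, an inhibitor inside the cell, 8.40 and 8.57 at E16, 11.15 and 10.88 at E18, and 10.06 and 10.02 at P2, while Wnt11, a ligand, was low at 7.92 and 7.76 at E16, 6.44 and 6.90 at E18, and 7.70 and 7.86 at P2. In the TGF-beta and BMP list 3 of 29 were high and 3 low, with Id1 and Id3, targets of BMP, among the low. There was 1 high without either E18 array or either P2 array, and 1 low without E18 replicate 1. In the FGF, hedgehog and Notch list 2 of 34 were high and 4 low. The hedgehog factors Gli1 and Gli2 were low, and Hhip, an inhibitor of the hedgehog pathway, was high. The 4 low genes of that list were 2 without E18 replicate 1, 0 without E18 replicate 2 and 1 without P2 replicate 1 or P2 replicate 2. These are 10.8% and 2.7%, 10.3% and 10.3%, and 5.88% and 11.8% of the lists, against 9.41% and 5.18% of all measured genes. In the endothelium 30 of 36 measured genes were above E16 (83.3%, against 33.6% of all measured genes). Of the 36, 3 were transient high and 1 low. There was 1 high without E18 replicate 2 or P2 replicate 2, and 0 low without any of the E18 and P2 arrays. With all arrays the endothelial shares were 8.33% high and 2.78% low, below those of all measured genes. Kdr, a VEGF receptor, was 1.23 above E16 and 0.01 from P2.

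Of the remaining lists, mesothelium had 3 high of 11 (27.3%, against 9.41%), among them Krt19, which the keratin list holds too. Immediate early and heat shock genes had 5 high of 28 (17.9%), 3 without E18 replicate 1, and the amino acid and unfolded protein response had 4 high and 3 low of 29 (13.8% and 10.3%), with 2 high without E18 replicate 2, P2 replicate 1 or P2 replicate 2. Lung mesenchyme had 3 high and 4 low of 30 (10% and 13.3%), with 2 low without E18 replicate 2 or P2 replicate 2. Cartilage, and the list of neuroendocrine cells, nerve and glia, had 1 high and 1 low each, of 8 and 6 measured. Genes of MHC antigen presentation, complement, lymphocytes, red blood cells and skeletal muscle had 0 of either. Their measured members were only 13, 17, 7, 11 and 1. With shares of 9.41% and 5.18% over all measured genes, so few members can give 0, and no conclusion is drawn from it.

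**Figure D5:**
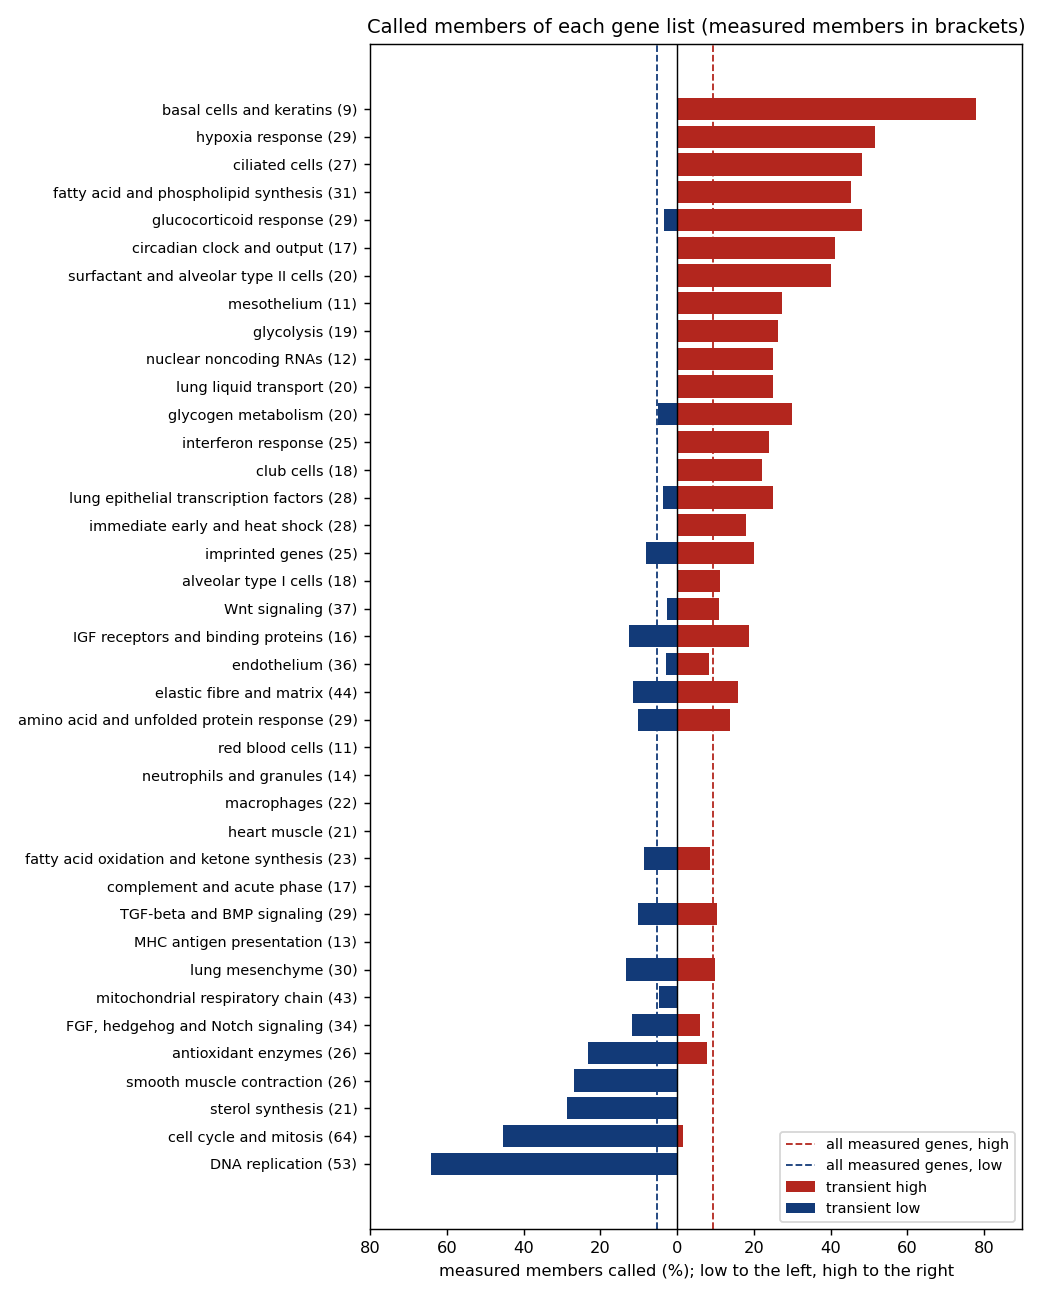
Share of the measured members called transient high (red, to the right) and transient low (blue, to the left), in percent (x axis), for gene lists with 9 or more measured members, whose number stands in brackets. Dashed lines are the shares of all measured genes, 9.41% and 5.18%. Keratin, hypoxia, cilia, lipid synthesis and glucocorticoid lists lie farthest to the right, and DNA replication and cell cycle farthest to the left.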

How the data were processed

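RNA from pooled whole lungs at 7 time points, 2 arrays each, had been measured on 3′ oligonucleotide arrays. The values used were the deposited log2 expression values, as the authors normalized them; the methods name RMA in Partek Genomics Suite 6.4 and the submitters' processing notes name GCRMA, and which of them gave these values is not known. Array medians were between 6.546 and 6.625, and no depth applies, so the number of arrays limits the precision. The 64 control probe sets were left out. Of 45037 probe sets, 34945 had 1 symbol, 932 several and 9160 none, and each of 18193 genes was represented by its probe set with the highest mean over 14 arrays.

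limma 3.58.1 in R 4.3.3 was fitted with 1 mean per time point (residual df 7, prior df 6.04). Calls used an adjusted p under 0.05, a level of 7 and, for strong genes, a step of 1.2. The script was tested on simulated data, in probe sets with means well above the level of 7, flat at the other time points, with independent noise. Of 50 probe sets set 0.8 above both neighbours 49 were called, of 50 set 0.8 below 50, and of 200 unchanged ones 0. Steps as small as the medians of 0.53 and 0.48, levels near 7 and a shared shift of the E18 arrays were not simulated. The members and the 45 gene lists were chosen with earlier results of these data known. Some lists share members, so their counts are not independent. For example, the glucocorticoid list shares Ddit4 with the hypoxia list and Cebpd with the epithelial transcription factors. Genes named were the 15 strongest in each direction and, for each list, up to 5 called members with the largest averaged difference, beside up to 3 defining members that were not called. Genes at the edges of the size threshold and some other list members were picked after their values were seen. Promoter windows came from RefSeq, and each motif was searched on both strands. Other normalizations, thresholds and models, a replicate block and leaving out each array were tried.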

Additional observations from a re-analysis of the deposited data

How the results depend on the processing

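Of the 168 called genes named, 0 changed the sign of the averaged E18 difference under the other normalizations and models or without single arrays. Their calls make this nearly certain, and signs of the single steps were not counted. A stricter p cannot change a sign, but at an adjusted p under 0.01, 40 of the 168 lost their call. The other choice of probe set was run for counts only. At an adjusted p under 0.01 there were 652 transient high and 302 transient low genes. With a size of 1 in place of 1.2 there were 131 strong high, 31 strong low and 432 higher genes by the averaged difference, and with a size of 2 there were 16, 1 and 46, with 23 lower. Quantile normalization, centring on medians, fits without the other time points, without moderation or with an intensity trend, and levels of 8 or none, moved these counts by less than 1.5 times. Without single arrays the transient high genes ranged from 629 to 1089, the transient low from 267 to 615, the strong high from 73 to 93, the strong low from 11 to 24, the genes higher by the averaged difference from 252 to 293 and the lower from 197 to 238. A lone remaining array is assumed to vary like the others. Replicate numbers did not pair the samples: deviations of same-numbered arrays correlated by -0.284 to 0.195 across time points. With the replicate block there were 981 transient high, 529 transient low, 82 strong high, 16 strong low, 268 higher and 222 lower genes. With 2 arrays a group, small steps limit the calls: 41 of the 168 called genes named lost their call without E18 replicate 1.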
